A study of Rattus norvegicus with 8 samples.

Results

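The genes described here build the folding and secretion machinery of the endoplasmic reticulum (ER), the compartment in which secreted and membrane proteins are made. The list holds 50 genes in 5 sets: 20 chaperones and folding enzymes, 14 components of the translocon and signal peptidase, 6 subunits of the oligosaccharyltransferase, 8 genes of ER-associated degradation, and the transcription factors Xbp1 and Atf6. Each gene was represented by 1 probe set of the array, the brightest of those annotated with its symbol alone whose values spanned at least 0.05 on the log2 scale over the 8 arrays. By that rule 35 of the 50 genes were measured, of 2808 genes measured among 14218 with a probe set of their own. A difference between the diets itself helps a gene to pass this filter, so counts describe the 35 measured genes, not all 50. The background given beside them is of all probe sets that passed the same filter, which can hold several per gene.

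Livers came from male Wistar rats that ate AIN-93G based diets with either 0.3% phosphorus (control diet) or 1.2% phosphorus (HP diet) for 24 days and were 8 weeks old at the end. Each diet has 4 arrays, 1 rat each, so the replicates are separate animals, and dietary phosphorus is the difference between the groups that the labels give. The experiment asks how a high phosphorus load changes gene expression in the liver. Whole liver RNA was hybridised, so fewer cells of a type and less RNA per cell cannot be told apart.

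A nascent secretory protein enters the ER through the Sec61 channel, loses its signal peptide, receives N-linked glycans and is folded with the help of chaperones, disulfide isomerases and lectins. Proteins that fail to fold are returned to the cytosol and degraded. Hepatocytes secrete most plasma proteins and hold abundant rough ER, and when unfolded proteins accumulate, the sensors Ire1, Perk and Atf6 raise the expression of chaperones and degradation genes, the unfolded protein response.

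Of the 3 sets with more than 1 measured gene, the chaperones had the median difference farthest from 0, and most of them had a lower level in HP diet-fed rats. Of the 35 measured genes, 28 (80.0%) had a lower mean in HP diet-fed rats, where 56.5% of the 4155 probe sets tested did, and the median difference, HP minus control, was -0.10 on the log2 scale against -0.02 over all of them (-0.06 against -0.02 without control rat 3). In 6 of the 35 every HP diet-fed rat was below every control rat, which was so for 4.07% of probe sets. In 0 genes was every HP diet-fed rat above every control rat (3.10% of probe sets). The differences were small: in absolute size they ran up to 0.34 log2, with a median of 0.11.

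Rank products, the method of the study, called 10 of the 35 lower and 1 higher at a false discovery rate (FDR) under 0.05, where it called 12.1% and 8.45% of probe sets. The number of calls depended on the rats and on the ranking, and the share of all probe sets called lower fell with it. Without control rat 3 there were 0 calls (1.71% of probe sets were then lower and 7.27% higher). There were 0 as well when ranks were taken over the probe sets spanning at least 0.05 instead of all 31099 (0.433% lower and 0.602% higher). In limma, a linear model with a shared estimate of spread, 0 genes passed an adjusted p under 0.05, as did 0.0% of probe sets, and the lowest adjusted p of any was 0.156. At an unadjusted p under 0.05 limma put 9 of the 35 below control (background 7.29%) and 0 above it (background 5.37%). Rank products called 8 of those 9, all but Hspa5. Over the 2808 measured genes, with 1 probe set each chosen as for the 35, 54.7% had a lower mean in HP diet-fed rats. Every HP diet-fed rat was below every control rat in 3.53% and above in 3.60%. Rank products called 9.94% of these genes lower and 8.40% higher. Limma put 6.30% below and 5.77% above at an unadjusted p under 0.05.

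Creld2, an ER-resident chaperone-like protein induced by ER stress, had the largest difference of all 35 genes. Its log2 values were 9.74, 9.90, 10.10 and 9.91 in control rats 1 to 4 and 9.60, 9.47, 9.64 and 9.56 in HP rats 1 to 4. The groups did not overlap, and the difference was -0.34 ± 0.08 (SE, n = 4 per diet), a level 78.8% of control, with an FDR of 0.00726 by rank products and an adjusted p of 0.217 by limma. Ero1a, the oxidase that feeds disulfide bonds to protein disulfide isomerase, came next. It read 8.31, 8.35, 8.48 and 8.35 on the control diet and 8.04, 7.96, 8.08 and 8.18 on the HP diet. Again all 4 HP diet-fed rats were lower, by 0.31 ± 0.07 log2, to 80.8% of control (FDR 0.0103, limma adjusted p = 0.217).

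Of the Hsp70 and Hsp90 machinery, Hsp90b1 (Grp94), the Hsp90 paralogue of the ER lumen, read 12.50, 12.54, 12.62 and 12.56 in control rats and 12.37, 12.41, 12.42 and 12.28 in HP diet-fed rats. The diets did not overlap and the SDs were small (0.05 and 0.06), so a difference of only -0.18 ± 0.04 log2 had the same adjusted p of 0.217 by limma as Creld2 and Ero1a (FDR 0.0345). Hspa5 (BiP), the ER Hsp70 and the most used marker of the unfolded protein response, read 12.78, 12.96, 12.98 and 12.73 in control rats against 12.73, 12.64, 12.74 and 12.62 in HP diet-fed rats. Control rat 4 lay among the HP diet-fed rats. The difference of -0.18 ± 0.06 log2 was as large as that of Hsp90b1, but the FDR was 0.0577 and the limma adjusted p was 0.333, so neither called it at its threshold. Hyou1, a large Hsp70 relative that exchanges the nucleotide of BiP, read 7.64, 7.64, 7.73 and 7.56 against 7.55, 7.29, 7.43 and 7.29. HP rat 1 lay just below control rat 4, the groups did not overlap, and the difference was -0.26 ± 0.09 log2 (FDR 0.0184, limma adjusted p = 0.333).

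Of the cofactors of BiP, 3 had differences of about the size of that of Hyou1. Manf, a small secreted and ER-resident factor that binds BiP, read 11.21, 11.21, 11.51 and 11.18 in control rats and 11.14, 11.02, 11.07 and 10.92 in HP diet-fed rats. All HP diet-fed rats were lower (difference -0.24 ± 0.08 log2, FDR 0.0202), and control rat 3 stood well above the others: without it the difference was -0.16. Sdf2l1, which works with the J protein Dnajb11 on BiP clients, read 9.66, 9.74, 9.59 and 9.68 against 9.66, 9.34, 9.36 and 9.35. Here 3 HP diet-fed rats were close together below all controls while HP rat 1 sat among the controls (difference -0.24 ± 0.08 log2, FDR 0.0244). Dnajc3 (p58IPK), a J protein that also inhibits Perk, read 11.17, 11.10, 11.28 and 11.31 against 11.13, 10.89, 10.83 and 11.05. HP rat 1 was again within the control range (difference -0.24 ± 0.08 log2, FDR 0.0245). The other 2 J proteins of the chaperone set were not called, Dnajb11 at -0.15 ± 0.07 log2 and Dnajb9 at 0.02 ± 0.12.

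**Figure D1:**
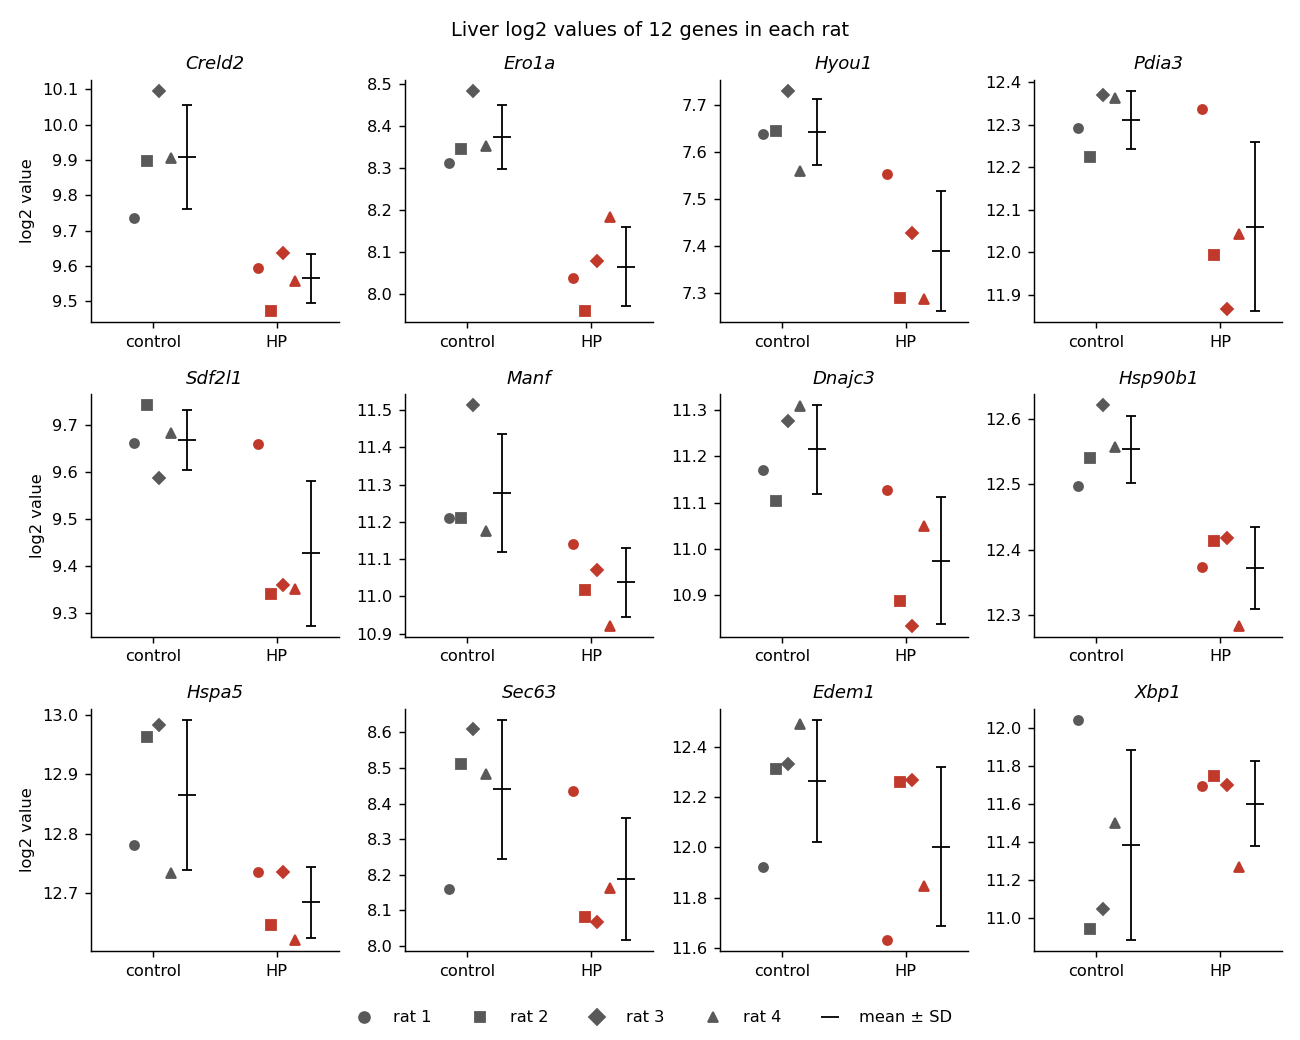
Log2 value (vertical axis, scaled to each gene) of 12 genes in each of the 4 control rats (grey) and 4 HP diet-fed rats (red), with symbols for rats 1 to 4 and bars for the mean ± SD. Creld2, Ero1a, Hyou1, Manf and Hsp90b1 do not overlap between the diets, HP rat 1 lies with the controls for Sdf2l1 and Pdia3, and Xbp1 has its widest spread among the control rats.

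Among the isomerases the difference was not shared. Pdia3 (ERp57), the thiol oxidoreductase that works with calnexin and calreticulin, read 12.29, 12.22, 12.37 and 12.36 in control rats and 12.34, 11.99, 11.87 and 12.04 in HP diet-fed rats. HP rat 1 was inside the control range and the other 3 were below it (difference -0.25 ± 0.09 log2, FDR 0.026, limma adjusted p = 0.339). P4hb, the classical protein disulfide isomerase, had a difference of 0.00 ± 0.03 log2 at a mean of 12.44 in control and 12.45 in HP diet-fed rats. The prolyl isomerase Ppib and the thioredoxin-domain protein Txndc5 were likewise near 0 (0.00 ± 0.03 and -0.02 ± 0.05 log2). Pdia4, another BiP partner, was at -0.13 ± 0.06 log2 and Ero1b, the second ER oxidase, at -0.11 ± 0.05, neither called by either method. The lectin chaperone Canx was at -0.01 ± 0.05 log2, although a dimmer probe set for it gave -0.12.

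Over the 17 measured chaperones and folding enzymes, 15 had a lower mean in HP diet-fed rats, rank products called 8 lower (47.1%, background 12.1%), limma had 9 at an unadjusted p under 0.05 (52.9%, background 7.29%), and 5 did not overlap (29.4%, background 4.07%). The median difference was -0.18 log2, or 88.2% of control. Within this set the 9 chaperones and their cofactors had a median of -0.24 and the 5 isomerases one of -0.02. With any 1 rat left out the median of the 17 stayed between -0.20 and -0.14.

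**Figure D2:**
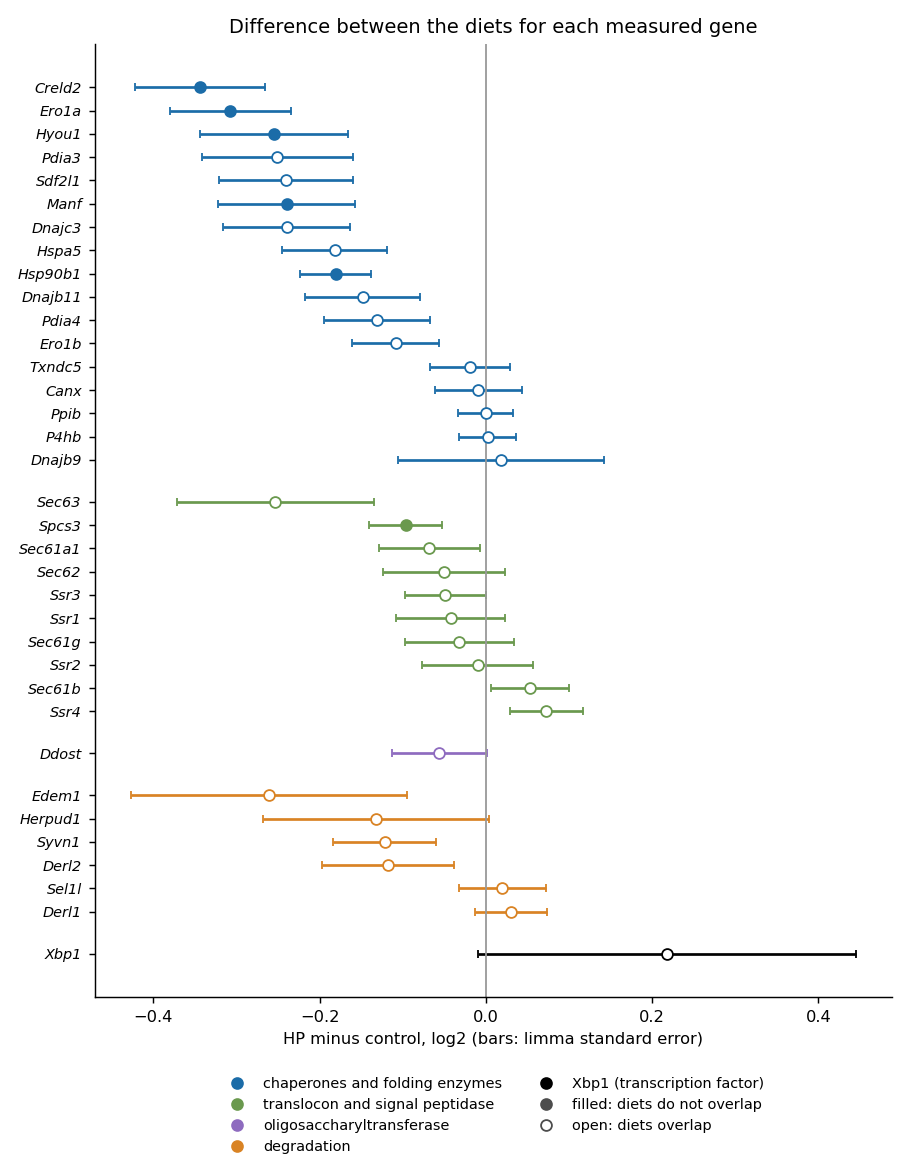
Difference between the diets (HP minus control, log2, horizontal axis) for each of the 35 measured genes, grouped and coloured by role, with limma standard errors as bars and filled points where the diets do not overlap. The chaperones run from -0.34 (Creld2) to 0.02 (Dnajb9), while 8 of the 10 translocon and signal peptidase genes lie between -0.10 and 0.05.

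The stretches of promoter below show the elements through which the unfolded protein response is known to act, for genes of this list that carry them. The ER stress response element (ERSE, CCAAT and CCACG held 9 bases apart) and ERSE-II (ATTGG and CCACG held 1 base apart) are read by Atf6 and Xbp1. Both were searched on both strands in RefSeq windows of assembly GRCr8 that run from 250 bases before to 50 after each gene's start, with overlapping matches kept. Of 33469 windows, 22 (0.0657%) held an ERSE and 17 (0.0508%) an ERSE-II. The table had a window for 43 of the 50 genes, of which 9 held an ERSE and 3 an ERSE-II. The core of the unfolded protein response element (TGACG followed directly by TGG) was searched too and was in 199 windows (0.595%), of this list only in that of Hyou1, where it overlaps an ERSE-II. The elements were chosen with the differences between the diets known, and a match is a run of letters, not a measured binding site. Capitals mark the 2 conserved blocks of each element, which read CGTGG and ATTGG (ERSE) or CGTGG and CCAAT (ERSE-II) where the match is on the opposite strand.

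The first sequence is the whole upstream part of the BiP window, 250 bases at chr3:38452766-38453015 (plus strand), shown because Hspa5 is the reference gene of this response. Its ERSE begins 43 bases before the start.
Hspa5: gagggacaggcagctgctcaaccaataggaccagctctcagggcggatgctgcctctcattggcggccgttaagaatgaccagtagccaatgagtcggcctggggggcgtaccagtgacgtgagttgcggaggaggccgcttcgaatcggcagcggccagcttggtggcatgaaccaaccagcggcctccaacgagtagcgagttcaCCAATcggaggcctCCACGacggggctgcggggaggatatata
The next sequences show single elements with 20 bases on each side. Hsp90b1 has a pair of them, at chr7:23012431-23012489 and chr7:23012327-23012385 on the minus strand, 176 and 72 bases before the start. Creld2, the gene with the largest difference, has one at chr7:121789219-121789277 (plus strand), and Dnajc3 one at chr15:102432514-102432572 (plus strand).
Hsp90b1 far: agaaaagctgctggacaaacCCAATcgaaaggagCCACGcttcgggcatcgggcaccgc
Hsp90b1 near: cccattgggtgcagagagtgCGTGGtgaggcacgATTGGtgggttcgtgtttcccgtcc
Creld2: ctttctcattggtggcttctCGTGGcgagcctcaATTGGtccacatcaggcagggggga
Dnajc3: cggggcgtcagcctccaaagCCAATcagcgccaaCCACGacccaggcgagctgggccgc
Canx at chr10:35158049-35158107 (minus strand) and Xbp1 at chr14:84604538-84604596 (plus strand) carry the same element, and are shown because their differences were -0.01 and 0.22 log2.
Canx: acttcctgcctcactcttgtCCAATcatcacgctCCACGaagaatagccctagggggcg
Xbp1: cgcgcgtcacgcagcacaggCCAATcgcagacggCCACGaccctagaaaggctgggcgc
Hyou1 holds ERSE-II 2 times, at chr8:53602674-53602724 and chr8:53602774-53602824 (plus strand), and Herpud1 once, at chr19:10614801-10614851 (minus strand).
Hyou1 far: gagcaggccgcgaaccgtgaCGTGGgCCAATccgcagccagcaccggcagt
Hyou1 near: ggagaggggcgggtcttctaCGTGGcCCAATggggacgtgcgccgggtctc
Herpud1: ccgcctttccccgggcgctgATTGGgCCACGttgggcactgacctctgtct

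Of the measured genes, 10 had an ERSE or ERSE-II in their window: those printed above, Ero1b, and Dnajb11, whose match reaches the start. In these 10 the median difference was -0.16 log2, and 9 had a lower mean in HP diet-fed rats (background 56.5%). In 3 (Hsp90b1, Creld2 and Hyou1) the diets did not overlap (background 4.07%). Rank products called 4 lower (background 12.1%) and 1 higher (background 8.45%). In the 20 measured genes whose window held neither, the median was -0.05 log2, 15 were lower and 1 (Spcs3) did not overlap. Rank products called 3 of these 20 lower, near the background of 12.1%, and 0 higher. Most genes with an element are chaperones or folding enzymes, and most measured translocon genes are among those without one. Element and role therefore overlap, and their parts were not tested. Of the chaperones and folding enzymes whose window held neither, Sdf2l1 was at -0.24, Pdia4 at -0.13 and Txndc5 at -0.02. The others of these, Dnajb9, P4hb and Ppib, were at 0.02, 0.00 and 0.00. The measured chaperones and folding enzymes with an element ran from -0.34 (Creld2) to -0.01 (Canx). The 5 measured genes for which the table had no window (Pdia3, Manf, Ero1a, Derl1 and Sec61a1) had a median of -0.24. Since genes were compared with genes after their values were seen, this is a description and was not tested. Among genes with the ERSE, differences ran from -0.34 (Creld2) through -0.01 (Canx) to 0.22 (Xbp1). Calr and Derl3 also held an ERSE but were not measured.

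**Figure D3:**
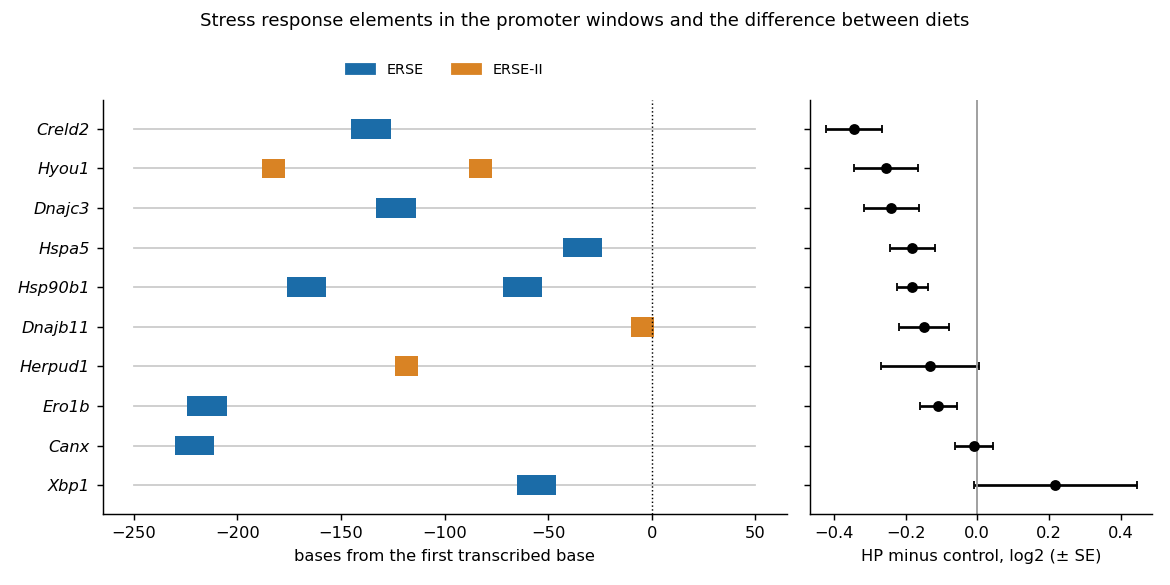
Left, position of ERSE (blue) and ERSE-II (orange) matches in the promoter windows of 10 measured genes, in bases from the first transcribed base (dotted line). Right, the difference between the diets for the same gene (HP minus control, log2, bars are standard errors), from -0.34 for Creld2 to 0.22 for Xbp1, with 9 of the 10 at or below 0.

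Components of the translocon had mostly small differences, most of them negative. Of 10 measured genes, 8 (80%, background 56.5%) had a lower mean in HP diet-fed rats. The median was -0.05 log2 (-0.02 without control rat 3 or without HP rat 4). By rank products 1 was called lower (near the background of 12.1%). Limma had 0 at an unadjusted p under 0.05 (background 7.29% lower). The channel subunits Sec61a1, Sec61b and Sec61g were at -0.07, 0.05 and -0.03 log2. A dimmer probe set of Sec61a1 gave -0.15 and was not called (FDR 0.0801 by rank products). The 4 subunits of the translocon-associated protein complex, Ssr1 to Ssr4, ran from -0.05 to 0.07. Sec63, a J protein that recruits BiP to the channel, was the gene called. It read 8.16, 8.51, 8.61 and 8.48 in control rats against 8.44, 8.08, 8.07 and 8.16 in HP diet-fed rats. The rats numbered 1 crossed over, with control rat 1 among the HP diet-fed rats and HP rat 1 near the controls (difference -0.25 ± 0.12 log2, FDR 0.0239, limma adjusted p = 0.409). A brighter probe set of Sec63 was almost constant and gave a difference of 4.65e-05. Spcs3, a subunit of the signal peptidase, read 11.68, 11.76, 11.82 and 11.70 against 11.66, 11.66, 11.66 and 11.58. All HP diet-fed rats were lower, by a narrow margin (difference -0.10 ± 0.04 log2, FDR 0.0784, limma adjusted p = 0.399).

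For the listed glycosylation genes the arrays gave almost no information. Of the 6 oligosaccharyltransferase subunits only Ddost varied enough to be measured. It read 9.91, 9.93, 10.05 and 9.82 in control rats and 9.88, 9.90, 9.88 and 9.83 in HP diet-fed rats, which overlapped (difference -0.06 ± 0.06 log2, or -0.01 without control rat 3, FDR 0.343, limma adjusted p = 0.682). Rpn1, Rpn2, Dad1, Stt3a and Stt3b were summarised as almost constant.

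In the degradation set, 4 of 6 measured genes (66.7%, background 56.5%) had a lower mean in HP diet-fed rats. The median was -0.12 log2 (-0.06 without HP rat 1). Rank products called 1 lower (16.7%, background 12.1%), limma had 0 at an unadjusted p under 0.05 (background 7.29% lower), and the diets overlapped in all 6. Edem1, a mannosidase-like protein that selects glycoproteins for degradation, read 11.92, 12.31, 12.33 and 12.49 in control rats and 11.63, 12.26, 12.27 and 11.85 in HP diet-fed rats. HP rats 2 and 3 were close to the controls and rat 1 was the lowest of both groups. Rank products called it lower (difference -0.26 ± 0.17 log2, FDR 0.022) and limma did not (adjusted p = 0.512). Without HP rat 1 the difference was -0.14 (FDR 0.0757), while 13.0% of all probe sets were called lower, against 12.1% with all rats. The call was also lost without control rat 2, 3 or 4, where 2.07%, 1.71% and 2.98% of all probe sets were called lower. The other 2 Edem1 probe sets gave -0.26 and -0.19 and were called by rank products too. Herpud1, which organises the degradation complex, read 10.81, 10.94, 10.90 and 10.71 against 10.35, 10.64, 11.08 and 10.76. HP diet-fed rats held both the highest and the lowest value (difference -0.13 ± 0.14 log2, FDR 0.13). Single rats set this value: it was -0.01 without HP rat 1 and -0.26 without HP rat 3, where rank products called it lower (FDR 0.0253). Syvn1 (Hrd1), the ubiquitin ligase at the centre of the pathway, was at -0.12 ± 0.06 log2, and its partner Sel1l at 0.02 ± 0.05, neither called. The probe sets of the retrotranslocation factors disagreed in sign: Derl1 gave 0.03 and -0.06 log2, and Derl2 -0.12 and 0.05, with the brighter one first.

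Xbp1, whose spliced mRNA encodes the transcription factor made when Ire1 is active, was the 1 gene called higher. It read 12.04, 10.95, 11.05 and 11.50 in control rats and 11.70, 11.74, 11.70 and 11.27 in HP diet-fed rats. The control rats spread over more than the whole range of the HP diet-fed rats and control rat 1 was the highest of all 8. Rank products gave an FDR of 0.0405 for a difference of 0.22 ± 0.23 log2, and limma an adjusted p of 0.686. Leaving out control rat 1 raised the difference to 0.44 (FDR 0.00222) and leaving out HP rat 4 to 0.33. It was 0.07 when control rat 2 was left out, and 0.11 when control rat 3 was. The call was lost without any single rat other than control rats 1 and 4, and without the dimmest 25% of probe sets. Without HP rats 1 to 4, rank products called 3.03%, 2.02%, 2.31% and 2.58% of all probe sets higher, against 8.45% with all rats. Without control rats 2 and 3 the shares were 7.97% and 7.27%. The files hold 1 value per probe set and do not tell spliced from unspliced Xbp1 mRNA. Atf6, the membrane-bound sensor, read 9.39 in every rat to 2 decimals and was not measured.

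The 14 genes with an almost constant probe set spanned between 0.000178 and 0.0323 log2 over the 8 rats. They were Pdia6, Calr, Uggt1, Spcs1, Spcs2, Sec11a, Sec11c, Rpn1, Rpn2, Dad1, Stt3a, Stt3b, Selenos and Atf6. Most were not dim, with control means from 6.56 to 11.88 (median 10.37) against 7.64 to 12.87 (median 10.69) for the 35 measured genes. Derl3 had no probe set annotated with its symbol alone. For all 15 the data give no difference to test, which does not show that their mRNA was equal on the 2 diets.

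The rats differed in how far the genes were shifted. Each gene was centred on its mean of all 8 values and the 17 chaperones and folding enzymes were averaged: control rats 1 to 4 were at 0.04, 0.07, 0.15 and 0.05 log2. HP rats 1 to 4 were at -0.02, -0.11, -0.06 and -0.12. The groups did not overlap, with HP rat 1 nearest to the controls. Control rat 3 held the highest value for 20 of the 35 genes and HP rat 4 the lowest for 13. The means over all 4155 probe sets stayed within -0.02 and 0.02 in every rat. For the translocon the same average overlapped: control rats were at -0.07, 0.00, 0.11 and 0.05 log2 and HP diet-fed rats at 0.02, 0.00, -0.05 and -0.07. For degradation, control rats were at -0.05, 0.09, 0.10 and 0.06 and HP diet-fed rats at -0.18, 0.00, 0.05 and -0.06, which overlapped too.

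**Figure D4:**
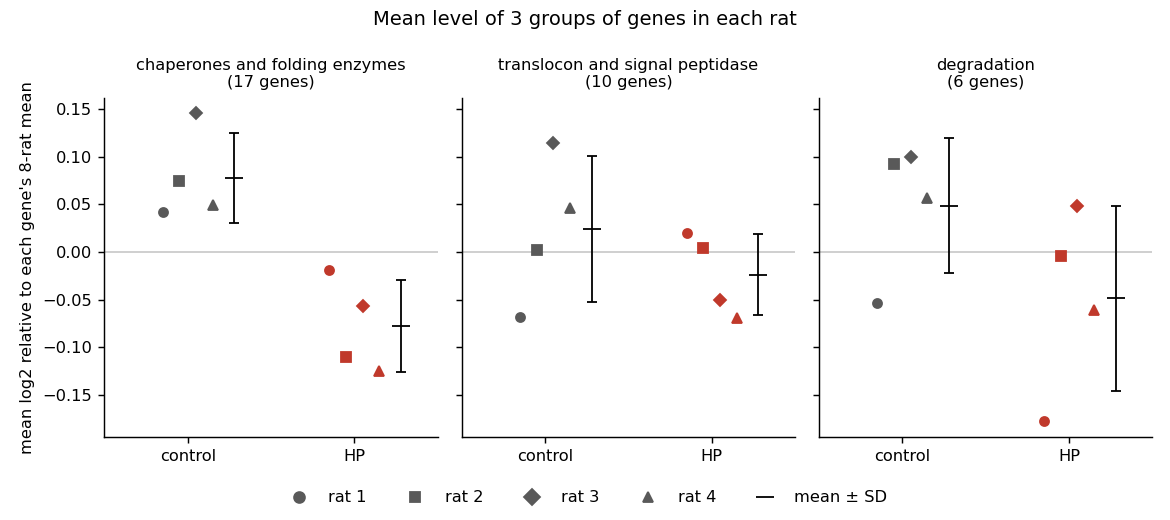
Mean log2 value of the measured genes of 3 sets relative to each gene's mean over all 8 rats (vertical axis), in each control rat (grey) and HP diet-fed rat (red), with bars for the mean ± SD. The diets do not overlap for the 17 chaperones and folding enzymes, where control rat 3 is highest at 0.15, and overlap for the translocon and for degradation.

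Leaving out control rat 3, limma still had 7 of the 35 genes lower at an unadjusted p under 0.05 (4.60% of probe sets), and every HP diet-fed rat was below the remaining controls in 7 (5.10% of probe sets). Rank products called 4, 1, 0 and 2 genes lower without control rats 1, 2, 3 and 4, where they called 6.04%, 2.07%, 1.71% and 2.98% of probe sets, and 9 to 11 genes without any one HP diet-fed rat (9.58% to 13.0% of probe sets).

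A list of 117 further ER genes was read in the same way. In it 36 were measured, 29 (80.6%, background 56.5%) with a lower mean in HP diet-fed rats, against 80.0% of the 35 genes above. The median was -0.08 log2, against -0.10 for those 35. Rank products called 2 lower (5.56%) and 1 higher (2.78%), both shares below the background of 12.1% and 8.45%. In this list limma put 4 (11.1%, background 7.29%) below and 1 (2.78%, background 5.37%) above at an unadjusted p under 0.05 and called 0 after adjustment. The diets did not overlap in 4 lower genes (background 4.07%) and 1 higher gene (background 3.10%). Ufd1, a cofactor of the Vcp ATPase that pulls proteins out of the ER, read 8.77, 8.74, 8.94 and 8.73 in control rats and 8.54, 8.55, 8.66 and 8.64 in HP diet-fed rats. The groups did not overlap (difference -0.19 ± 0.07 log2, FDR 0.0293, limma adjusted p = 0.333). Copb1, a subunit of the COPI coat that returns proteins from the Golgi, did not overlap either (-0.14 ± 0.05 log2, FDR 0.0497). Krtcap2, an accessory subunit of the oligosaccharyltransferase, was the gene called higher. It read 10.05, 10.07, 10.09 and 10.03 against 10.18, 10.20, 10.14 and 10.27, with every HP diet-fed rat above the controls (0.14 ± 0.05 log2, FDR 0.0418, limma adjusted p = 0.332). In the sets without a call, the largest differences were -0.19 ± 0.08 for Hspa13, an Hsp70 of the microsome, -0.11 ± 0.05 for the J protein Dnajc1, and -0.11 ± 0.07 for Eif2s1, the translation factor that Perk phosphorylates. All 14 measured genes of export to the Golgi and retrieval lay between -0.14 and 0.08 log2, 12 of them below 0.

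Markers of cell types were read beside these results. Of 11 hepatocyte markers, 3 were measured (Apoa1, Fgb and Fga), with a median difference of 0.00 log2 and a mean level of 13.02 to 13.19 in control and 13.09 to 13.16 in HP diet-fed rats. Of 11 Kupffer cell and macrophage markers, 8 were measured, 7 with a lower mean in HP diet-fed rats (background 56.5%). Their median was -0.07 and none was called. Of 7 markers of the sinusoidal endothelium, 4 were measured and all 4 had a higher mean in HP diet-fed rats (mean level 9.46 to 9.60 in control and 9.58 to 9.75 in HP diet-fed rats). Rank products called Kdr and Stab2 higher (background 8.45%), and both had an unadjusted p under 0.05 by limma (background 5.37%). Kdr did not overlap between the diets (background 3.10%). The 5 measured of 7 stellate cell and fibroblast markers had a median of 0.05, none called, and of the 6 pancreatic acinar markers 1 was measured, Cela1 at 0.19 ± 0.10 log2, not called. None of the 5 cholangiocyte markers or 7 plasma cell and B cell markers was measured. The part of cell composition in the differences of the ER genes was not tested.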

How the data were processed

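The genes and lists described here were chosen with earlier results of these data known. Per the labels the excised liver was put in RNAlater, while the study's methods describe tissue frozen in liquid nitrogen. RNA was extracted with Trizol and RNeasy, labelled with biotin and hybridised to Affymetrix GeneChip rat arrays. The authors then made the deposited log2 values with FARMS in R 2.13.1, which fits 1 factor per probe set and leaves probe sets without shared probe signal almost constant. How arrays were scaled to one another was not given in the sources used here. Over all 31099 probe sets the median was 6.65 on each of the 8 arrays, and the 4155 that varied (below) gave correlations between arrays of 0.968 to 0.992. The number of arrays limits the precision.

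Symbols came from the platform annotation (20826 probe sets with 1 symbol, 436 with several and 9780 with none). Rank products were computed over all probe sets from the 16 differences between an HP and a control array with 1000 permutations. For limma 3.58.1 (R 4.3.3, trend and robust estimation, two-sided), the 4155 probe sets spanning at least 0.05, without the 57 control probe sets, were tested and adjusted by Benjamini-Hochberg. Both scripts were tested on simulated data. Genes named in full were those called by rank products, at an unadjusted p under 0.05 by limma or without overlap, the 2 largest differences of each set, and Hspa5, Hsp90b1, Xbp1 and Atf6. In the list of further ER genes those called by rank products were named, and otherwise the largest of each set. Alternatives were other normalizations, filters, weights and fits, a replicate block and each rat left out. Python 3.11.15 with pandas 2.3.3 was used for the rest.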

Additional observations from a re-analysis of the deposited data

Results flagged for a closer look

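In 4 of 80 groups of 4 rats tested, 1 rat lay far from the other 3 of its diet, and chance gives about 1 such group in 20. Sdf2l1 was 9.66 log2 in HP rat 1, with the other HP diet-fed rats between 9.34 and 9.36. Manf was 11.51 log2 in control rat 3, with the other control rats between 11.18 and 11.21. Spcs3 was 11.58 log2 in HP rat 4, with the others on that diet at 11.66. Xbp1 was 11.27 log2 in HP rat 4, against 11.70 to 11.74 in the other HP diet-fed rats. The cause was not tested.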

How the results depend on the processing

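Counts in this paragraph are of the 35 measured genes. None had an adjusted p under 0.05 by limma under any alternative run. With rank products over the varying probe sets only, 0 were lower and 0 higher, and with the dimmest 25% left out 0 were higher. Array weights gave 14 below control and 1 above at an unadjusted p under 0.05, where they gave 11.8% and 9.27% of all probe sets. Centring each array left 1 gene with every HP diet-fed rat above the controls. With no filter on the span, where the brightest probe set is often almost constant, 1 gene was higher at an unadjusted p under 0.05, the median difference was -0.000286 and Sec63 turned to 4.65e-05. Leaving out 1 rat, rank products called 0 to 11 lower and 0 to 1 higher, limma put 6 to 14 below and 0 to 1 above at an unadjusted p under 0.05, and 6 to 10 lay wholly below and 0 to 1 wholly above the controls. The high counts without control rat 1 (14 by limma, 10 without overlap) stood beside 11.4% and 10.4% of all probe sets. Without both rats numbered 1, chosen after seeing the data, 13 did not overlap (14.3% of all probe sets). Correlations of same-numbered rats ran from -0.20 to 0.48, and those of other pairs of a control and an HP rat from -0.48 to 0.51. The main fit did not pair the rats, and a replicate block gave 10 below control and 0 above at an unadjusted p under 0.05. The median of the chaperones stayed between -0.21 and -0.14 in the alternatives run. That of the translocon ran from -0.07 to -0.02 with 1 rat left out and was -1.55e-05 with no filter on the span, and that of degradation ran from -0.14 to -0.06. The causes of these changes were not tested, apart from the fewer probe sets or rats that an alternative has by construction.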
